A study of Mus musculus with 10 samples.

Results

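The transcripts described here are those of the mitochondrial chromosome in mouse heart tissue, measured by RNA sequencing. They were taken as every row of the gene count table whose Ensembl identifier maps to a mouse symbol beginning with mt-, which gave 18 of 31655 rows. The 18 genes were 13 protein genes, 2 ribosomal RNA genes and 3 transfer RNA genes. The mouse mitochondrial chromosome carries 37 annotated genes, and 19 further tRNA genes were not analysed here.

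Mice of both groups received a single intraperitoneal dose of 10 mg/kg lipopolysaccharide (LPS, a bacterial cell wall component used to model septic cardiomyopathy), and cardiac tissue was taken 72 h later. The baicalin plus LPS group had been gavaged with 100 mg/kg baicalin, a plant flavonoid, for 14 days beforehand, and the LPS group with distilled water. There were 5 libraries per group, numbered LPS 1 to 5 and baicalin 1, 2, 3, 5 and 7 after their labels; a blank group that was given saline instead of LPS was not analysed here, so no value below is a response to LPS. The design text gives 8 mice per group, the labels do not say which mouse a library came from, and strain, sex and age are not in the labels used here. The p-values therefore measure the spread between these libraries.

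The mitochondrial chromosome is transcribed from both strands into long precursors, which are cut at the tRNAs that lie between the coding genes and the rRNA genes. Its 13 proteins are core subunits of respiratory chain complexes I, III and IV and of the ATP synthase (complex V), and each of these complexes also needs subunits encoded in the nucleus. In heart muscle, which depends on oxidative phosphorylation, these transcripts are known to make up a large share of the poly(A) RNA. Many fragments of the mitochondrial chromosome were also inserted into the nuclear chromosomes during evolution, and such copies can be nearly identical in sequence to the genes they came from.

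Several of the results turn on these nuclear copies, so pairs of sequences are shown first, in the sense direction of the mitochondrial gene, from the GENCODE M21 transcripts (build GRCm38). The first 60 bases of mt-Co2 (chrM:7013-7072, plus strand) and of the pseudogene Gm28661 (chr1:24615506-24615565, minus strand) had no difference. The first 60 bases of mt-Atp6 (chrM:7927-7986, plus strand) and of Gm10925 (chr1:24614592-24614651, minus strand) had none either, and the capitals in mt-Atp6 mark the 43 bases it shares with the end of mt-Atp8. Between mt-Nd3 (chrM:9459-9518, plus strand) and Gm28438 (chr1:24613060-24613119, minus strand) 1 base differed, in capitals in the copy.
mt-Co2: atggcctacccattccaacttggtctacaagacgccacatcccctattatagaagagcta
Gm28661: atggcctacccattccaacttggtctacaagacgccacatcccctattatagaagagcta
mt-Atp6: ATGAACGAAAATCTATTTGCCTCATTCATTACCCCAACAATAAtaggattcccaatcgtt
Gm10925: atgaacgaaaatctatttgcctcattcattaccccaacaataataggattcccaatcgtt
mt-Nd3: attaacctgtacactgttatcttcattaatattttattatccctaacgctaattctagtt
Gm28438: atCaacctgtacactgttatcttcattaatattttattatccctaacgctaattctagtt

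The most abundant member, mt-Co1, is matched by 2 kinds of copy. Its last 80 bases (chrM:6793-6872, plus strand) were the same in Gm29216 (chr1:24615706-24615785, minus strand), while Gm13340 (chr2:22588103-22588182, minus strand) differed at 1 of them, in capitals. A less similar copy is shown for contrast. Bases 101 to 180 of mt-Cytb (chrM:14245-14324, plus strand) differed at 7 positions, in capitals, from Gm11410 (chr4:80004089-80004168, plus strand).
mt-Co1: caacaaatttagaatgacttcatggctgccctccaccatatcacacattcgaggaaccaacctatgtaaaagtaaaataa
Gm29216: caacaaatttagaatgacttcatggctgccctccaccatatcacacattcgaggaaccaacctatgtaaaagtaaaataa
Gm13340: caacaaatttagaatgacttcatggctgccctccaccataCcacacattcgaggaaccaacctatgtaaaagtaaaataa
mt-Cytb: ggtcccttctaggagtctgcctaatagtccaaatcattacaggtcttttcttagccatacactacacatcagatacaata
Gm11410: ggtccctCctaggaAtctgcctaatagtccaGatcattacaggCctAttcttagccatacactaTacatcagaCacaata

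Depth ran from 39.4 to 75.7 M counts per library, and RNA of cardiomyocytes was plain in all 10 (the summed level of 10 cardiomyocyte markers was between 39892 and 65387 CPM, that is counts scaled to a common library size). LPS 1, 2 and 3 stood apart, because acute phase genes were low in them: Lcn2 was at 4.60 to 5.90 CPM against 154 to 1127 CPM in the other 7 libraries, Saa3 at 1.21 to 2.07 against 82.8 to 407 CPM, and Serpina3n at 9.92 to 13.6 against 267 to 1041 CPM. On these genes the libraries labelled LPS 1, 2 and 3 were unlike both LPS 4 and 5 and the 5 baicalin libraries, although their labels give the same LPS dose; the labels were used as given, so every LPS mean below mixes both kinds of library. These 3 libraries also held the highest cardiomyocyte sums, from 61006 to 65387 CPM, and the 3 lowest macrophage sums, from 141 to 163 CPM against 235 to 1313 CPM elsewhere (7 markers). Neutrophil sums (5 markers) were 1.55 to 3.38 CPM in LPS 1, 2 and 3. They were highest in LPS 4, at 157 CPM, and 20.9 to 72.5 CPM elsewhere. LPS 4 had the highest erythroid sum as well (541 CPM against 13.9 to 184 CPM, 5 markers). Its endothelial sum was the highest (1061 CPM against 509 to 883 CPM, 8 markers) and its cardiomyocyte sum, 39892 CPM, the lowest. The part of these differences in the results below was not tested, and in tissue RNA fewer cells of a type and less RNA per cell cannot be told apart. The estimate of each mitochondrial gene, and the counts and medians of the main gene lists, are also given without LPS 1, 2 and 3. Only LPS 4 and LPS 5 then remain in the LPS group.

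The mitochondrial genes accounted for 30.2% to 44.1% of all counts, depending on the library. The share was 42.1% in LPS 1, 42.9% in LPS 2, 43.3% in LPS 3, 30.2% in LPS 4 and 36.8% in LPS 5. It was 42.1% in baicalin 1, 36.5% in baicalin 2, 40.7% in baicalin 3, 44.1% in baicalin 5 and 39.3% in baicalin 7. The groups overlapped, and the library with the lowest share, LPS 4, and the one with the highest, baicalin 5, recur in the single genes below. The baicalin group mean was 1.48 percentage points above the LPS mean, less than the SD of either group (5.61 in LPS and 2.89 in baicalin plus LPS, n = 5 each). Without LPS 4 the difference was -0.740 points, and without LPS 1, 2 and 3, which leaves an LPS mean of 33.5%, it was 7.04 points, so both its sign and its size depended on which LPS libraries were counted.

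**Figure D1:**
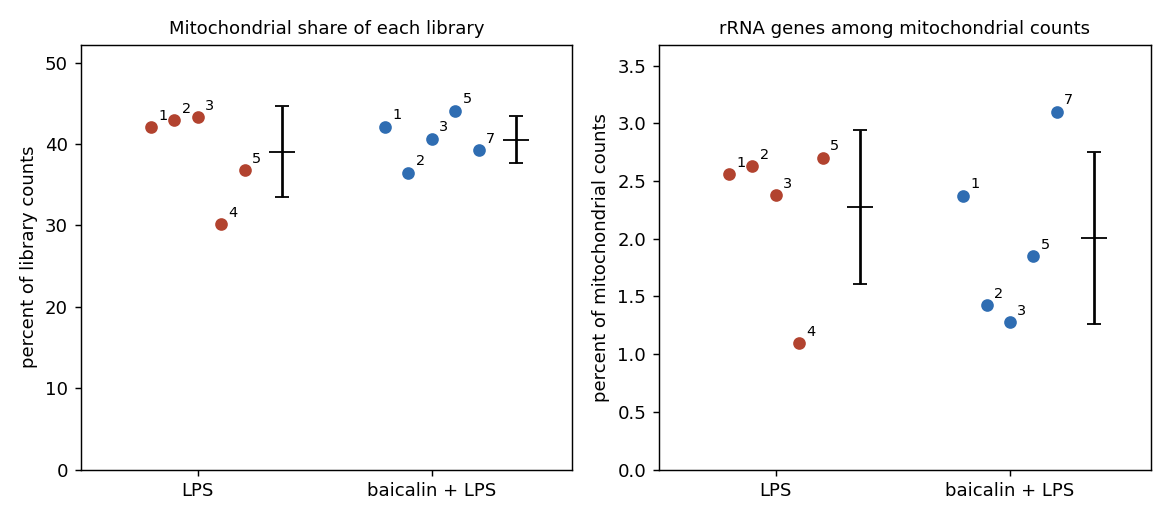
Percent of library counts on mitochondrial genes (left) and percent of mitochondrial counts on the 2 rRNA genes (right), with 1 point per library, labelled by its number, and the group mean ± SD beside it (n = 5). LPS 4 is the lowest library in both panels, and the groups overlap in both.

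Protein genes made up nearly all mitochondrial counts, and the 2 rRNA genes took between 1.10% and 3.10% of them in these libraries from an mRNA kit. mt-Rnr1 encodes the small and mt-Rnr2 the large rRNA of the mitochondrial ribosome. Together they held 2.56%, 2.63%, 2.38%, 1.10% and 2.70% of mitochondrial counts in LPS 1 to 5. They held 2.37%, 1.43%, 1.28%, 1.85% and 3.10% in baicalin 1, 2, 3, 5 and 7. LPS 4, baicalin 2 and baicalin 3 were the low libraries, the groups overlapped, and the means of 2.27% ± 0.668 and 2.01% ± 0.747 (SD, n = 5 each) differed by less than either SD. Without LPS 1, 2 and 3 the difference changed sign, from -0.268 to 0.105 percentage points.

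Among the proteins the counts were concentrated on a few genes. mt-Co1, mt-Nd1 and mt-Cytb alone held between 68.8% and 73.1% of mitochondrial counts, and with mt-Nd5, mt-Nd2 and mt-Nd4 the share was 94.8% to 96.9%. mt-Co1 encodes the subunit of cytochrome c oxidase that holds the site of oxygen reduction. Its share of mitochondrial counts was 42.2%, 40.9%, 40.1%, 44.6% and 43.9% in LPS 1 to 5, and 40.8%, 40.6%, 40.3%, 40.0% and 40.1% in baicalin 1, 2, 3, 5 and 7. The shares of baicalin plus LPS lay within a narrow band (40.4% ± 0.323), from 40.0% to 40.8%, and all LPS libraries but LPS 3 lay above that range (42.3% ± 1.92, n = 5 each, difference -1.98 percentage points). Without LPS 1, 2 and 3 the difference was -3.89 points. In the edgeR fit relative to mitochondrial counts, described below, the log2 fold change of mt-Co1 was -0.07 ± 0.10 SE (unadjusted p = 0.487). It was -0.13 without LPS 1, 2 and 3 (edgeR unadjusted p = 0.496).

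Per base of gene length the members spanned a wide range. FPKM corrects a count for depth and for the length of the gene, so it can be compared between genes whose reads are counted alike. mt-Co1 was highest at a mean of 106224 FPKM over the 10 libraries, followed by mt-Nd1 at 61878 FPKM and mt-Cytb, the only mitochondrial subunit of complex III, at 49022 FPKM. mt-Nd2 (28197 FPKM), mt-Nd5 (25589.6 FPKM) and mt-Nd4 (18421 FPKM), all core subunits of the membrane arm of complex I, came next, and mt-Nd6, the only protein gene on the minus strand, stood at 6809 FPKM. Each of these 7 was above its next neighbour in all 10 libraries, except that mt-Nd2 was above mt-Nd5 in 8 of 10.

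The rRNAs, a tRNA and the other 6 protein genes followed. mt-Rnr2 stood at 4087 FPKM, mt-Co2 at 3644 FPKM, mt-Rnr1 at 2269.8 FPKM and the proline tRNA mt-Tp at 2052 FPKM. mt-Atp6 stood at 1709 FPKM, mt-Co3 at 1081 FPKM, mt-Nd4l at 979.7 FPKM, mt-Nd3 at 292 FPKM and mt-Atp8 at 252 FPKM. Neighbours among these often swapped places: mt-Rnr2 was above mt-Co2 in 7 of 10 libraries, mt-Rnr1 above mt-Tp in 4, mt-Tp above mt-Atp6 in 6, mt-Co3 above mt-Nd4l in 7 and mt-Nd3 above mt-Atp8 in 8. Subunits of a single complex were far apart in counted level, since mt-Co1 exceeded mt-Co2 by 29.2 times and mt-Co3 by 98.2 times in mean FPKM. The proteins of these 3 genes form the core of cytochrome c oxidase together. Of the 100-base stretches of mt-Co2 and mt-Co3, 99.5% and 99.9% also occur in nuclear transcripts, against 30.8% for mt-Co1. How reads that match several places were counted is not given, and its part in this gap was not tested. The 2 other tRNA genes were nearly empty: mt-Tl1 (leucine) had 2 counts, all in LPS 3, and mt-Tc (cysteine) 2 counts, all in LPS 4.

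**Figure D2:**
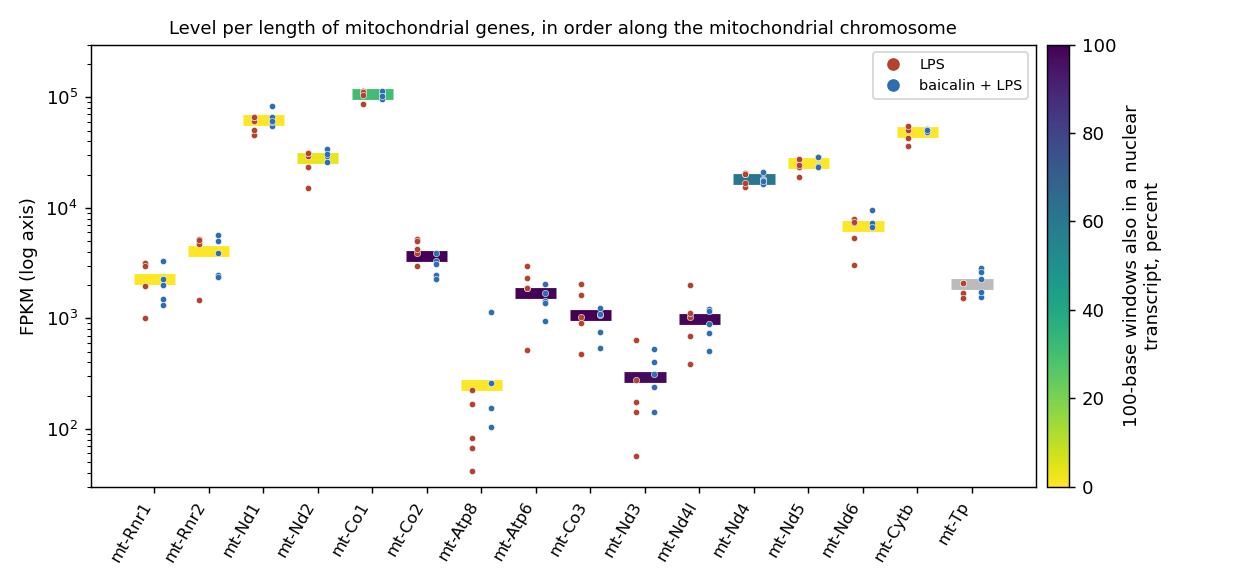
FPKM (log axis) of the 16 mitochondrial genes that passed the filter on low counts, in their order along the mitochondrial chromosome, with 1 point per library and a thick line at the mean of 10 libraries. Line colour gives the percent of the gene's 100-base windows found unchanged in a nuclear transcript (grey for mt-Tp, which is shorter than a window); mt-Co2, mt-Atp6, mt-Co3, mt-Nd3 and mt-Nd4l, all above 97%, lie at or below 3644 FPKM.

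The level per length of each gene was set beside the sequence it shares with nuclear transcripts. Of all 100-base windows of mt-Co2, mt-Atp6, mt-Co3, mt-Nd3 and mt-Nd4l, between 97.6% and 99.9% also occurred letter for letter in a nuclear transcript. Those 5 genes had mean levels from 292 to 3644 FPKM. Of the protein genes with under 20% of windows shared, mt-Nd1, mt-Nd2, mt-Nd5, mt-Nd6 and mt-Cytb (at most 3.19%) ranged from 6809 to 61878 FPKM. These levels lay above those of the 5 genes with nearly all windows shared. The remaining protein gene under 20%, mt-Atp8, stood at 252 FPKM, below those 5. mt-Co1, with 30.8% shared, and mt-Nd4, with 60.8%, stood at 106224 and 18421 FPKM, so mt-Co1 was highest of all and mt-Nd4 was above mt-Nd6, which shares none. mt-Atp8, the lowest of the 16, shared no window with an annotated nuclear transcript, and neither did mt-Rnr1 and mt-Rnr2, whose 2269.8 and 4087 FPKM lay near mt-Co2. mt-Atp8 lies between mt-Co2 and mt-Atp6 and overlaps mt-Atp6 by 43 bases. The copies of these neighbours, Gm10925 (up to chr1:24614651) and Gm28661 (from chr1:24614885), leave a gap between them. Only annotated transcripts were searched, so whether that gap holds a copy of mt-Atp8 was not tested. This is a description of 13 genes that also differ in length, from 204 bases (mt-Atp8) to 1824 bases (mt-Nd5).

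The chromosome 1 copies lie side by side on the minus strand, from Gm28439 (chr1:24611535-24612410, GRCm38) to Gm29216 (chr1:24615706-24616197), in the gene order of the mitochondrial chromosome, and are annotated as unprocessed pseudogenes. Gm10925 matched mt-Atp6 over 678 bases, Gm28661 matched mt-Co2 over 681, Gm28437 matched mt-Co3 over 783, Gm10222 matched mt-Nd4l over 294 and Gm28439 matched mt-Nd4 over 876, all at 100% identity. Gm28438 differed from mt-Nd3 at 1 of 345 bases, and Gm29216 matched mt-Co1 over 483 bases at 99.8%. The count table assigned them many counts: on average 1310.0 CPM of the library total for Gm10925, 1024 for Gm28661, 651 for Gm28439, 605 for Gm29216, 408 for Gm28437, 134 for Gm10222 and 41.2 for Gm28438. On chromosome 2, Gm13340 (97.6% identical to mt-Co1) held 214 CPM, Gm13341 (95.9% to mt-Co2) 10.6 CPM and Gm13339 (96.7% to mt-Nd2) 2.99 CPM, and on chromosome 13 Gm4076 (95.2% to mt-Nd5) held 4.62 CPM. Gm11410, the copy of mt-Cytb with 92.9% identity, held 0 or 1 count in each library.

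The 11 copies with at least 95% identity held from 0.299% to 0.579% of library counts, and at mt-Atp6 the copy held about as many counts as the gene. Gm10925 held 44.9%, 54.2%, 54.1%, 59.5% and 50.9% of the counts it shares with mt-Atp6 in LPS 1 to 5. It held 55.0%, 58.1%, 47.8%, 56.1% and 59.4% in baicalin 1, 2, 3, 5 and 7. The copy therefore had more counts than the gene in 8 of 10 libraries. For the other genes the copies' part ranged from 15.3% to 51.0% at mt-Co2, from 22.2% to 55.6% at mt-Co3, from 23.0% to 49.8% at mt-Nd4l and from 12.0% to 76.3% at mt-Nd3. The copies held more than the gene in 1 of 10 libraries at mt-Co2, mt-Co3 and mt-Nd3, and in 0 at mt-Nd4l. Their part was at most 3.95% at mt-Nd4 and at most 0.985% at mt-Co1. How the counting treated reads that match several places is not given in the sources used here, and the part of it in the levels of these genes was not tested; their counts are uncertain between gene and copy.

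**Figure D3:**
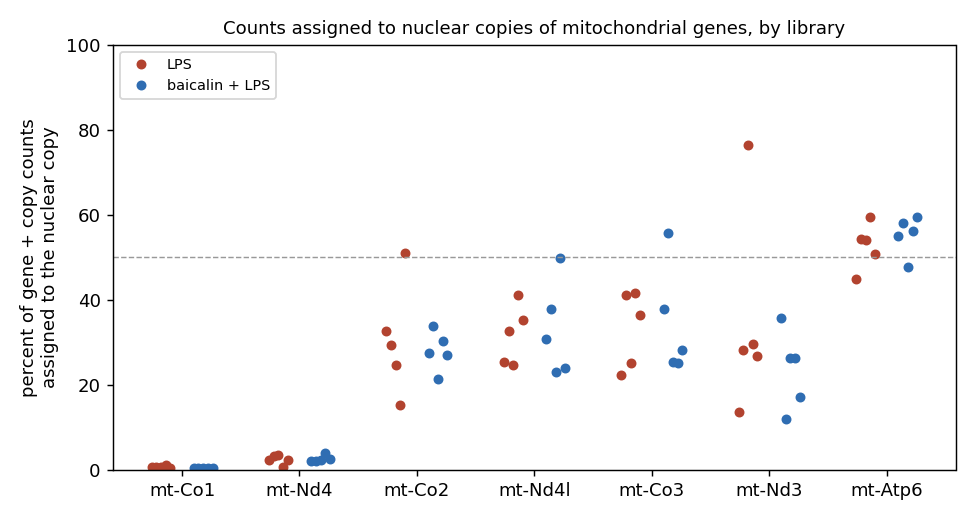
Percent of the counts of a mitochondrial gene plus its near-identical nuclear copies that the table assigned to the copies, with 1 point per library, LPS to the left and baicalin plus LPS to the right of each gene. The dashed line marks equal counts on gene and copies; at mt-Atp6 the points lie between 44.9% and 59.5%, at mt-Co1 and mt-Nd4 below 4%.

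Variation between libraries differed widely from gene to gene. As a share of mitochondrial counts, the coefficient of variation over the 10 libraries was 4.03% for mt-Co1, 5.73% for mt-Cytb, 6.61% for mt-Nd5, 8.94% for mt-Nd1 and for mt-Nd4, 11.3% for mt-Nd2 and 17.7% for mt-Nd6. Among the 5 genes with over 97% of windows shared it was 34.0% for mt-Co2, 37.4% for mt-Atp6, 39.1% for mt-Co3, 42.0% for mt-Nd4l and 63.6% for mt-Nd3. mt-Co1 and mt-Nd4, which share part of their windows, were at 4.03% and 8.94%, while the rRNA genes, which share none, were at 32.7% (mt-Rnr1) and 33.0% (mt-Rnr2), and mt-Tp was at 18.5%. mt-Atp8, with no annotated copy, was the most variable at 122%, and its share differed 19.1-fold between the highest and lowest library, against 1.12-fold for mt-Co1.

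Baicalin plus LPS was compared with LPS across the whole table by edgeR's quasi-likelihood test after TMM scaling, with Benjamini-Hochberg adjustment over 16850 genes; 16 of the 18 members passed the filter on low counts. No mitochondrial gene reached an adjusted p of 0.05, and neither did any other gene (0% of genes tested). At an unadjusted p under 0.05 there were 2 members, mt-Co2 lower and mt-Atp8 higher with baicalin, beside 11.1% of all genes (5.88% lower and 5.26% higher). Of the 16 fold changes, 7 were above 0 and 9 below (50.6% of all genes were below), and their median was -0.06 on the log2 scale against -0.00 for all genes. None of the 16 separated the groups without overlap (2.46% of all genes did). Without LPS 1, 2 and 3 the median of the members was 0.49 against 0.04 for all genes, and 15 of 16 estimates were above 0 (45.8% of all genes were below). That comparison sets only LPS 4 and LPS 5 against the baicalin libraries, and LPS 4 was the lowest of all libraries for 14 of the 16 members. At an unadjusted p under 0.05 there were then 4 members, all higher with baicalin, beside 12.1% of all genes in either direction (862 of 17965 were higher). They were mt-Nd2, mt-Nd3, mt-Nd6 and mt-Atp8, with edgeR adjusted p-values of 0.389, 0.375, 0.369 and 0.370. Still 0 were called, with 0% of all genes.

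A pair of libraries held most of the extremes. LPS 4 had the lowest CPM of the 10 libraries for 14 of the 16 members and baicalin 2 for the other 2 (mt-Co2 and mt-Tp), while baicalin 5 was highest for 6.

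**Figure D4:**
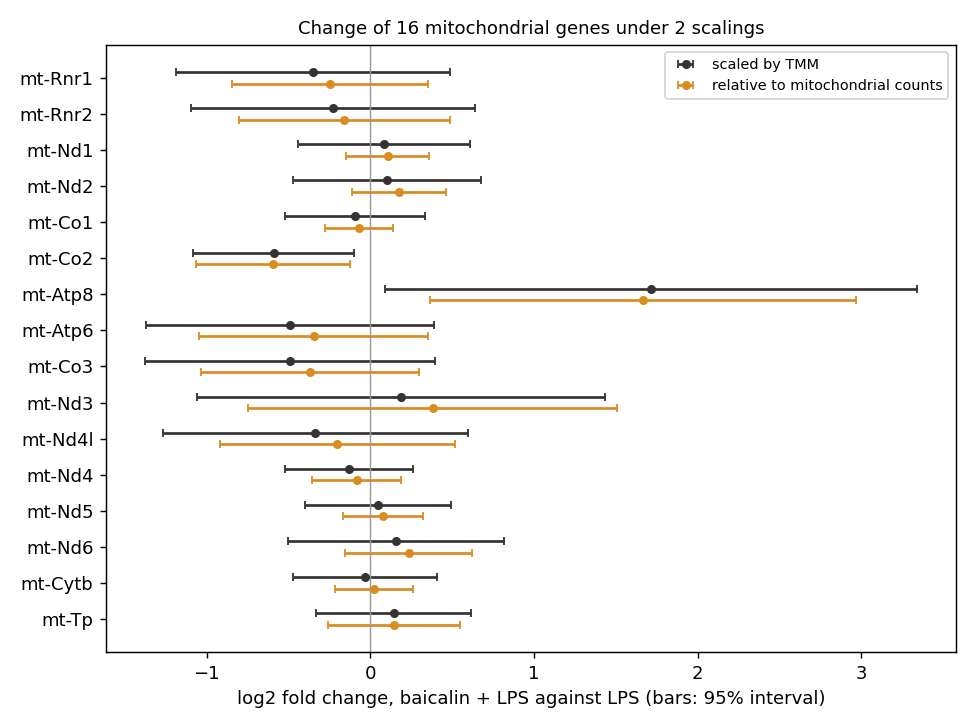
Log2 fold change of baicalin plus LPS against LPS for 16 mitochondrial genes in edgeR's quasi-likelihood fit, with 95% intervals, scaled by TMM (black) or to the mitochondrial counts of each library (orange). The intervals of mt-Co2 lie below 0 and those of mt-Atp8 above 0 under both scalings before adjustment; all others include 0.

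For complex I, 5 of the 7 mitochondrial subunits had estimates above 0 and 2 below, with a median of 0.08. mt-Nd1, highest of them per length, stood at 63831, 69478, 73218, 39604 and 45971 CPM in LPS 1 to 5, and at 63207, 46497, 52875, 91008 and 55975 CPM in baicalin 1, 2, 3, 5 and 7. The lowest library was LPS 4 and the highest baicalin 5, and the groups overlapped (log2 fold change 0.08 ± 0.24 SE, edgeR adjusted p = 0.929; 0.54 without LPS 1, 2 and 3). mt-Nd3, the lowest per length, stood at 243, 104, 56.3, 17.9 and 57.8 CPM in LPS 1 to 5, and at 49.0, 159.9, 76.9, 124 and 136 CPM in baicalin 1, 2, 3, 5 and 7. LPS 1 was highest and LPS 4 lowest, both of the same group, and the fold change of 0.19 ± 0.57 (edgeR adjusted p = 0.933) became -0.15 once the counts of Gm28438 were added, and 1.53 without LPS 1, 2 and 3.

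mt-Nd6, which is read from the strand opposite to the other protein genes and overlaps the end of mt-Nd5 by 14 bases, had 4472, 4134, 4411, 1424 and 2601 CPM in LPS 1 to 5. In baicalin 1, 2, 3, 5 and 7 it had 3581, 3059.8, 3442, 5554 and 3349 CPM. LPS 4 and LPS 5 were low, baicalin 5 was high, and the log2 fold change was 0.16 ± 0.30 (edgeR adjusted p = 0.884), or 0.93 without LPS 1, 2 and 3. The use of strand in counting is not given in the sources used here. It therefore cannot be told whether reads over mt-Nd6 came from its own strand or from the opposite one. The same holds for mt-Tp, also on the minus strand. The stretch shared with mt-Nd5 is in capitals in the end of mt-Nd5 (chrM:13536-13565, plus strand).
mt-Nd5: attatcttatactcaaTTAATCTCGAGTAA
The other 4 complex I genes overlapped between the groups as well, with edgeR adjusted p-values between 0.802 and 0.953. In LPS and baicalin plus LPS respectively, mt-Nd2 averaged 28668 ± 9791 and 30804 ± 5902 CPM (SD, n = 5 each), a log2 fold change of 0.10 ± 0.26. mt-Nd5 averaged 46365 ± 10554 and 47916 ± 8389 CPM, a log2 fold change of 0.05 ± 0.20. mt-Nd4 averaged 26764 ± 5881 and 24411 ± 2135 CPM, a log2 fold change of -0.13 ± 0.18. mt-Nd4l averaged 333 ± 211 and 263 ± 82.7 CPM, a log2 fold change of -0.34 ± 0.42. The estimates without LPS 1, 2 and 3 were 0.73 (mt-Nd2), 0.40 (mt-Nd5), 0.27 (mt-Nd4) and 0.83 (mt-Nd4l), so the last pair changed sign.

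In complex III, mt-Cytb encodes cytochrome b, which carries the quinone binding sites. It stood at 67102, 63081, 72725, 37318 and 46391 CPM in LPS 1 to 5, and at 58325, 48979, 53489, 63069 and 56157 CPM in baicalin 1, 2, 3, 5 and 7. All 5 baicalin libraries lay inside the range of the LPS libraries, and the log2 fold change was -0.03 ± 0.20 (95% interval -0.47 to 0.41, edgeR adjusted p = 0.967). It was 0.43 without LPS 1, 2 and 3.

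In complex IV all 3 mitochondrial subunits had estimates below 0. mt-Co1 stood at 192904, 191175, 199177, 120879.9 and 152775 CPM in LPS 1 to 5, and at 170766, 129878, 149892, 199375 and 152228 CPM in baicalin 1, 2, 3, 5 and 7. The groups covered nearly the same range, and the log2 fold change was -0.10 ± 0.19 (95% interval -0.52 to 0.33, edgeR adjusted p = 0.892). mt-Co3 stood at 1742, 880.3, 1472, 333 and 669 CPM in LPS 1 to 5, and at 425, 523, 892, 957 and 829 CPM in baicalin 1, 2, 3, 5 and 7. LPS 1 and LPS 3 were the high libraries, LPS 4 the lowest, and the log2 fold change was -0.49 ± 0.40 (edgeR adjusted p = 0.685). Without LPS 1, 2 and 3 the estimates turned to 0.24 for mt-Co1 and 0.54 for mt-Co3.

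mt-Co2, which encodes the subunit that takes electrons from cytochrome c, had the smallest p of the members in this fit. It stood at 2885, 3135, 4136, 3085 and 1942 CPM in LPS 1 to 5, and at 1689.7, 1362, 2426, 2537 and 2064 CPM in baicalin 1, 2, 3, 5 and 7. LPS 1 to 4 lay above every baicalin library, and LPS 5 lay among them. The means were 3037 ± 781 and 2016 ± 494 CPM (SD, n = 5 each), and the log2 fold change was -0.59 ± 0.22 with an edgeR adjusted p of 0.371 (unadjusted 0.0232). LPS 4, the lowest library for most members, was not low for mt-Co2, and its estimate without LPS 1, 2 and 3 was -0.30.

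The counts of mt-Co2 were also summed with those of Gm28661 and Gm13341, since 99.5% of its windows occur in a nuclear transcript; this step was chosen after the data had been seen. The sums were 4284, 4438, 5487, 3642 and 3962 CPM in LPS 1 to 5, and 2328, 2057, 3080.1, 3646 and 2831 CPM in baicalin 1, 2, 3, 5 and 7. The groups touched only at LPS 4 and baicalin 5. The log2 fold change was -0.65 ± 0.18 with an edgeR adjusted p of 0.299, and with copies summed 0% of genes tested were called. All 11 copies had estimates below 0 on their own (50.6% of all genes did; median -0.38), among them Gm29216 at -0.84 ± 0.21 (edgeR adjusted p = 0.272) and Gm28661 at -0.78 ± 0.29 (edgeR adjusted p = 0.355), and none was called. When LPS 1, 2 and 3 were left out, 3 of the 11 were below 0 and the median was 0.29, while Gm29216 and Gm28661 were at -0.84 and -0.74. Gm10925, Gm28661, Gm28437, Gm10222 and Gm28439 are 100% identical to their genes over the aligned bases, so their counts are not separate from those of the genes. Gm29216 differs from mt-Co1 at 1 of 483 aligned bases and Gm28438 from mt-Nd3 at 1 of 345. The counts of these copies are therefore hardly more separate.

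In complex V, mt-Atp6 and mt-Atp8 both encode subunits of the membrane part of the ATP synthase. mt-Atp6 stood at 2202, 1389, 1819.5, 317 and 1215 CPM in LPS 1 to 5, and at 964, 1011, 1274, 1065 and 626 CPM in baicalin 1, 2, 3, 5 and 7. The LPS libraries spanned both the highest and the lowest value, and the log2 fold change was -0.49 ± 0.40 (edgeR adjusted p = 0.683); it was 0.37 without LPS 1, 2 and 3. mt-Atp8 stood at 50.1, 37.0, 19.5, 7.54 and 13.0 CPM in LPS 1 to 5, and at 53.3, 18.7, 29.0, 265 and 51.3 CPM in baicalin 1, 2, 3, 5 and 7. Baicalin 5 was far above all others, and the other 4 baicalin libraries lay between 18.7 and 53.3 CPM, overlapping LPS 1, 2 and 3. The log2 fold change of 1.71 ± 0.74 (edgeR adjusted p = 0.421, unadjusted 0.0403) rested on that library in large part, since without it the estimate was 0.58. It was 3.04 without LPS 1, 2 and 3.

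For the ribosomal RNAs, mt-Rnr1 stood at 3282, 3268, 3281, 871 and 1781 CPM in LPS 1 to 5, and at 2135, 1113, 1296, 2183 and 3060.2 CPM in baicalin 1, 2, 3, 5 and 7. mt-Rnr2 stood at 8407, 9017, 8528, 2099 and 7629.6 CPM in LPS 1 to 5, and at 7812, 3442, 3453, 7029 and 8700.5 CPM in baicalin 1, 2, 3, 5 and 7. Both were low in LPS 4, baicalin 2 and baicalin 3, and both overlapped between groups. The log2 fold changes were -0.35 ± 0.38 (edgeR adjusted p = 0.768) and -0.23 ± 0.39 (edgeR adjusted p = 0.865), and they became 0.57 and 0.33 without LPS 1, 2 and 3. The proline tRNA mt-Tp, on the minus strand like mt-Nd6, ranged from 92.5 to 153 CPM in LPS and from 92.5 to 189 CPM in baicalin plus LPS (0.14 ± 0.22, edgeR adjusted p = 0.839; 0.38 without LPS 1, 2 and 3). Of the 3 tRNA genes with a row it is the only one with more than 2 counts in a library, and its sequence (chrM:15356-15422, minus strand), from the same GENCODE transcripts, is shown whole.
mt-Tp: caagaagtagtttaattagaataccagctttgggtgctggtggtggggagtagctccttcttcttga

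To see whether any gene changed relative to the mitochondrial total, the whole table was fitted again with the mitochondrial counts of each library as its size. That total includes the tested gene. For mt-Co1, at 40.0% to 44.6% of it, the estimate is therefore nearer to 0 than one against the other mitochondrial transcripts. Again 0 members were called (0% of genes tested), 2 had an unadjusted p under 0.05 beside 4.84% of all genes, and 8 estimates were above and 8 below 0 (51.2% of all genes were below) with a median of -0.02. None of the 16 separated the groups without overlap under this scaling (0.908% of all genes did). The 2 were mt-Atp8, at 1.67 ± 0.60, and mt-Co2, at -0.60 ± 0.22, both with an edgeR adjusted p of 0.913. As a share of mitochondrial counts, mt-Co2 held 0.631%, 0.671%, 0.832%, 1.14% and 0.558% in LPS 1 to 5, and 0.403%, 0.426%, 0.652%, 0.509% and 0.544% in baicalin 1, 2, 3, 5 and 7. LPS 4, the lowest library for most members, was the highest here. The next smallest p was that of mt-Nd6, at 0.23 ± 0.18 and unadjusted p = 0.212. Its share ran from 0.526% to 0.979% in LPS and from 0.855% to 1.11% in baicalin plus LPS. Under this scaling the estimates without LPS 1, 2 and 3 were 2.51 for mt-Atp8, -0.74 for mt-Co2 and 0.57 for mt-Nd6.

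The nuclear partners of these subunits were set beside them, from lists of standard symbols. Of 77 nuclear subunits of the 5 complexes 70 had estimates below 0 (50.6% of all genes did), the median was -0.21, 13 had an unadjusted p under 0.05, all of them lower with baicalin (11.1% of all genes, 5.88% lower), and none was called. These counts rested on LPS 1, 2 and 3: without them 30 of 77 were below 0 (45.8% of all genes), the median was 0.03 and 1 had an unadjusted p under 0.05, higher with baicalin. By complex, the nuclear median was -0.22 in complex I (36 genes, 33 below 0), -0.19 in complex III (9 genes, 8 below), -0.18 in complex IV (13 genes, 10 below) and -0.21 in complex V (15 genes, 15 below). The mitochondrial subunits of the same complexes had medians of 0.08, -0.03, -0.49 and 0.61, where the last is the midpoint of only mt-Atp6 and mt-Atp8. Complex II, which has no mitochondrial subunit, had 4 of 4 genes below 0 with a median of -0.23. The difference between nuclear and mitochondrial subunits was not tested, and marker lists of several cell types differed in the same comparison. Cardiomyocyte markers were below 0 for 8 of 10 (median -0.37), and macrophage markers above 0 for 7 of 7 (0.96). Fibroblast markers were above 0 for 6 of 6 (0.70). Below 0 were 5 of 5 erythroid (-2.08) and 7 of 8 endothelial markers (-0.40). Smooth muscle, skeletal muscle and neutrophil markers lay on both sides of 0, with medians of -0.12, -0.16 and 0.31. Without LPS 1, 2 and 3 the medians were 0.31 (cardiomyocyte), 0.33 (macrophage), 0.52 (fibroblast), -2.38 (erythroid) and -0.49 (endothelial).

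**Figure D5:**
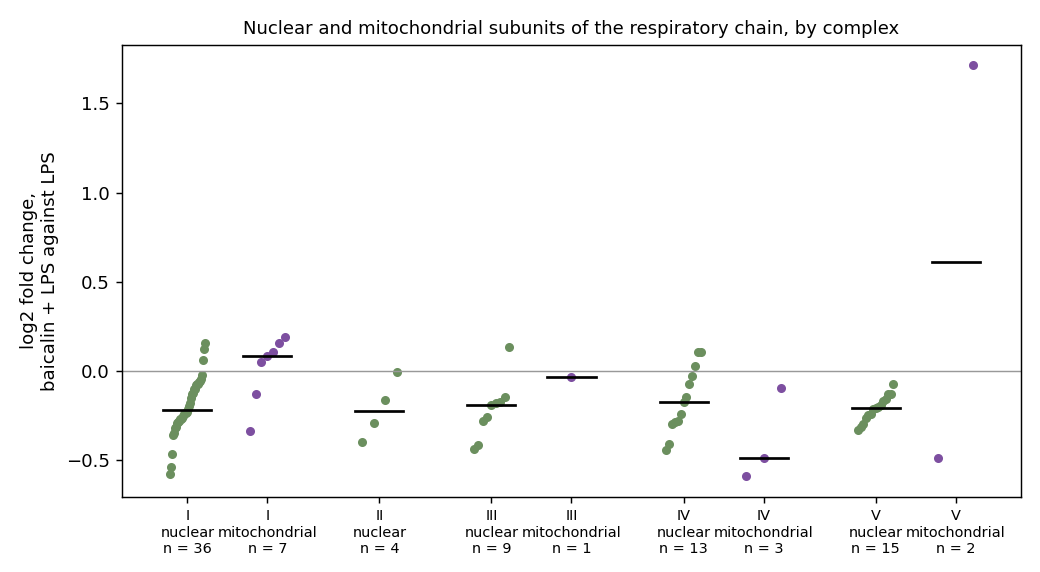
Log2 fold change of baicalin plus LPS against LPS (edgeR, TMM scaling) for nuclear (green) and mitochondrial (purple) subunits of respiratory chain complexes I to V, with 1 point per gene and a line at the median. Nuclear medians lie between -0.23 and -0.18; the mitochondrial subunits spread from -0.59 (mt-Co2) to 1.71 (mt-Atp8).

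Named by smallest p, the nuclear complex I genes were Ndufs7 at -0.58 ± 0.15 (edgeR adjusted p = 0.278), Ndufs8 at -0.47 ± 0.14 and Ndufv1 at -0.36 ± 0.13, all of the arm that takes electrons from NADH. Those of complex II were Sdha, its flavoprotein, at -0.40 ± 0.14 (edgeR adjusted p = 0.342), Sdhb at -0.29 ± 0.16 and Sdhd at -0.16 ± 0.12. Those of complex III were Uqcrc1 at -0.44 ± 0.14 (edgeR adjusted p = 0.310), Cyc1, cytochrome c1, at -0.41 ± 0.14 and Uqcrfs1, the Rieske protein, at -0.28 ± 0.15. Those of complex IV, the partners of mt-Co1, mt-Co2 and mt-Co3, were Cox4i1 at -0.41 ± 0.13 (edgeR adjusted p = 0.301), Cox7a2 at -0.28 ± 0.13 and Cox7a1 at -0.44 ± 0.22. Those of complex V were Atp5b, the catalytic subunit, at -0.33 ± 0.15 (edgeR adjusted p = 0.446), Atp5d at -0.30 ± 0.15 and Atp5l at -0.22 ± 0.11. None of these 15 passed the adjusted threshold.

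Genes that make, cut and degrade mitochondrial RNA gave 22 estimates below 0 and 9 above among 31 tested of 32 listed (50.6% of all genes were below 0), with a median of -0.07, 3 at an unadjusted p under 0.05 (11.1% of all genes) and 0 called. With LPS 1, 2 and 3 left out, 11 were below 0 and the median was 0.18. Among the transcription genes, Polrmt, the mitochondrial RNA polymerase, was at -0.26 ± 0.12 (edgeR adjusted p = 0.470), Tfam, which packages the mitochondrial DNA and starts transcription, at -0.08 ± 0.20 and Tfb2m at -0.06 ± 0.18. Among the processing genes, Fastk was at -0.31 ± 0.12 (edgeR adjusted p = 0.373), Elac2, which cuts the 3′ ends of tRNAs, at -0.32 ± 0.14 and Ptcd1 at -0.40 ± 0.21. Among the genes of RNA stability and decay, Lrpprc, which stabilises mitochondrial mRNAs, was at -0.35 ± 0.14 (edgeR adjusted p = 0.379), Rexo2 at 0.17 ± 0.11 and Supv3l1 at -0.18 ± 0.14.

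Another tool gave a different count of members. DESeq2 called 0 of the 16 members while calling 1.58% of all genes, and limma-voom called 0 (0% of all genes). limma-voom with sample quality weights called 3 members, all lower with baicalin, beside 17.6% of all genes. These were mt-Co2 at -0.78 (limma adjusted p = 0.0152), mt-Atp6 at -0.89 (limma adjusted p = 0.0296) and mt-Co3 at -1.06 (limma adjusted p = 0.0360). That fit gave LPS 1, 2 and 3 weights of 3.17, 2.33 and 2.47, LPS 4 a weight of 0.160 and LPS 5 a weight of 0.485, against 0.556 to 1.87 in the baicalin libraries, so its LPS mean was set mostly by the 3 libraries that stood apart.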

How the data were processed

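RNA from 10 heart libraries was extracted with TRIzol and 1 µg went into an ABclonal mRNA-seq kit, per the labels' protocols. The authors deposited whole-number read counts per Ensembl gene, with no normalization, and FPKM values; the build was mm10 per the submitters' processing notes. Not given in the sources used here: aligner, counting program, annotation, use of strand, and handling of reads that match several places. Each deposited FPKM was its count divided by a fixed gene length and by the depth of its library, and served for levels per length. Between 61.6% and 64.7% of counts from 1 to 50 in a library were even, so a count is not an independent fragment and no counting interval is given.

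Members and gene lists were chosen with earlier results of these data known. Symbols, coordinates and sequences came from GENCODE mouse release M21, which names 31076 of 31655 identifiers. Counts were fitted with edgeR 4.0.16 (R 4.3.3, filterByExpr by group, TMM, robust quasi-likelihood F test, Benjamini-Hochberg over all genes tested, adjusted p of 0.05). The fit was also run on simulated counts in which no library stood apart, so that run does not bear on a group as mixed as LPS. CPM are scaled by TMM except marker sums and copy levels, which use the library total. Nuclear copies were found with BLAST 2.17.0 (at least 95% identity, 100 aligned bases and 80% of the copy's transcript). Every protein and rRNA gene is named; values in every library are given for the rRNA genes, the highest and lowest gene per length of each complex and the 3 of smallest p in each fit. From the nuclear lists the 3 genes of smallest p are named. Alternatives were other scalings and filters, DESeq2 1.42.0, limma 3.58.1, left-out libraries and a replicate block.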

Additional observations from a re-analysis of the deposited data

Results flagged for a closer look

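In groups of 5, a library was set apart when its gap to the nearest other exceeded Dixon's 95% limit. This met 13 of 92 groups tested, and 7 of the 13 were baicalin 5. For a single group of normally distributed values chance gives about 1 in 20. The 92 groups reuse the same libraries and partly the same counts, so their number cannot be set against that rate. Causes were not tested.

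LPS 4 was low in rRNA, at 1.10% of mitochondrial counts against 2.38% to 2.70% in the other LPS libraries, and in mt-Rnr2, at 2099 CPM against 7629.6 to 9017 CPM. LPS 1 was low in mt-Nd5, at 10.1% of mitochondrial counts against 11.5% to 12.1%. Baicalin 5 was high in mt-Atp8 (265 CPM against 18.7 to 53.3 CPM, and 0.0532% of mitochondrial counts against 0.00586% to 0.0135%). It was also high in mt-Nd6 (5554 CPM against 3059.8 to 3581 CPM) and in mt-Nd1 (18.3% of mitochondrial counts against 14.2% to 15.1%).

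Among the nuclear copies, baicalin 5 was high in Gm28661 (1095 CPM against 630.0 to 760.4 CPM), the copy of mt-Co2, in Gm10222 (248 CPM against 80.8 to 117 CPM), the copy of mt-Nd4l, and in Gm28438 (44.2 CPM against 21.8 to 27.8 CPM), the copy of mt-Nd3. Baicalin 2 was high in Gm28437 (655 CPM against 257 to 326 CPM), the copy of mt-Co3. LPS 2 was high in Gm10222 (317 CPM against 71.8 to 124 CPM), and LPS 3 in Gm28438 (182 CPM against 7.56 to 40.9 CPM).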

How the results depend on the processing

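The count of mitochondrial genes called was 0 under every alternative except limma-voom with sample quality weights, which called 3 of them, 30 nuclear respiratory chain subunits and 6 mitochondrial RNA machinery genes, beside 17.6% of all genes; DESeq2 called 1 nuclear subunit, beside 1.58% of all genes. Quality weights also turned the log2 fold changes of mt-Nd1 (-0.15), mt-Nd2 (-0.15), mt-Nd3 (-0.35), mt-Nd5 (-0.10) and mt-Nd6 (-0.21). Without LPS 1, 2 and 3 the median was 0.49, mt-Rnr1 0.57, mt-Rnr2 0.33, mt-Co1 0.24, mt-Atp6 0.37, mt-Co3 0.54, mt-Nd4l 0.83, mt-Nd4 0.27, mt-Cytb 0.43, mt-Nd1 0.54, mt-Nd2 0.73, mt-Nd3 1.53, mt-Nd5 0.40, mt-Nd6 0.93, mt-Atp8 3.04, mt-Tp 0.38 and mt-Co2 -0.30, the nuclear subunits had a median of 0.03 and the machinery genes 0.18, the mitochondrial share differed by 7.04 percentage points and the mt-Co1 proportion by -3.89. Without baicalin 2 and 3, mt-Rnr2 was 0.14, mt-Co1 0.023 and mt-Cytb 0.046. Summing copies turned mt-Nd3 to -0.15, library totals turned mt-Cytb to 0.068 and limma-voom to 0.0074.

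The replicate block over numbers 1, 2, 3 and 5 called 0 members and gave mt-Nd1 -0.026, mt-Nd2 -0.074, mt-Nd5 -0.026, mt-Nd6 -0.016 and mt-Tp -0.078. The deviations of same-numbered libraries had correlations of -0.15, 0.08, -0.07 and 0.06. The labels do not say what the numbers stand for, so whether they pair the libraries is not known.

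Leaving out each library in turn gave 0 calls, log2 fold changes of -0.10 to 0.18 (mt-Nd1), -0.067 to 0.22 (mt-Nd2), -0.078 to 0.89 (mt-Nd3), -0.57 to 0.065 (mt-Nd4l), -0.066 to 0.15 (mt-Nd5), -0.040 to 0.27 (mt-Nd6) and -0.15 to 0.071 (mt-Cytb), a median of -0.18 to 0.035, and differences of -0.740 to 2.55 points in mitochondrial share, -0.562 to -0.0853 in rRNA share and -2.55 to -1.41 in mt-Co1 proportion. The cause of these shifts was not tested. mt-Tl1 and mt-Tc had too few counts for any comparison.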
